A study of Homo sapiens with 2 samples.

Results

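Enzymes that make serine, asparagine and proline, and those that pass the carbon of serine to folate, were examined in HT29 cells in which the zinc finger transcription factor GATA6 had been silenced. The genes were PHGDH, PSAT1, PSPH, SHMT1, SHMT2, MTHFD2, MTHFD1L, ALDH1L2, ASNS and PYCR1. They were chosen by their pathway with earlier results of these same arrays known, and the value used was the GATA6 siRNA minus control siRNA difference, so every difference below is a description and none was tested. Of the 10 genes, 8 were named by the annotation of the array, among 13753 named genes other than small RNAs. The expression of MTHFD2 and ALDH1L2 was not analysed here.

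HT29 is an established human colon adenocarcinoma line. Silenced cells were transfected with an siRNA against GATA6 and the comparison cells with a control siRNA, and each condition was represented by 1 array of total RNA. Neither the labels nor the methods say which of the listed GATA6 duplexes was used for the array or how long after transfection RNA was taken. With 1 array per condition there is no replicate check, and no p-value can be given.

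Serine is made from a glycolytic intermediate in a short chain of reactions, and asparagine is made from aspartate with nitrogen from glutamine. Serine hydroxymethyltransferases then cleave serine to glycine and load the released carbon onto tetrahydrofolate, in the cytosol and, by a separate enzyme, in mitochondria. Mitochondrial folate enzymes turn that carbon into formate, which leaves for the cytosol and feeds the synthesis of purines and thymidylate. In mammalian cells many of these genes are transcribed through ATF4, a factor whose own translation rises when amino acids are short, and MYC is also known to act on several of them.

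All 8 named enzymes were lower in the GATA6 siRNA array. The largest difference was that of PSAT1 and the smallest that of SHMT1, and the median of the 8 was -0.50 on the log2 scale, beside a median of 0 over all 13753 genes. PSAT1, ASNS, MTHFD1L, SHMT2 and PHGDH, 5 of 8, were lower by over 1.4-fold (a log2 difference of 0.49), which the study's methods took as the size of a decrease, and 0 of 8 were higher by that size. Over all named genes 2.61% were lower and 3.56% higher by over 1.4-fold, and 48.5% lay below 0. Because this difference was the one in view when the genes were chosen, nothing is read from the comparison of these shares.

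The deposited values hold the distance of each array from the median of both arrays, so the values of 1 gene in the GATA6 siRNA array and in the control siRNA array are equal in size and opposite in sign. They keep no expression level, and levels of different genes cannot be compared. The log base is not stated in the sources used here and was taken as 2. In RNA from whole cultures, less RNA per cell and a smaller share of cells that express a gene cannot be told apart.

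**Figure D1:**
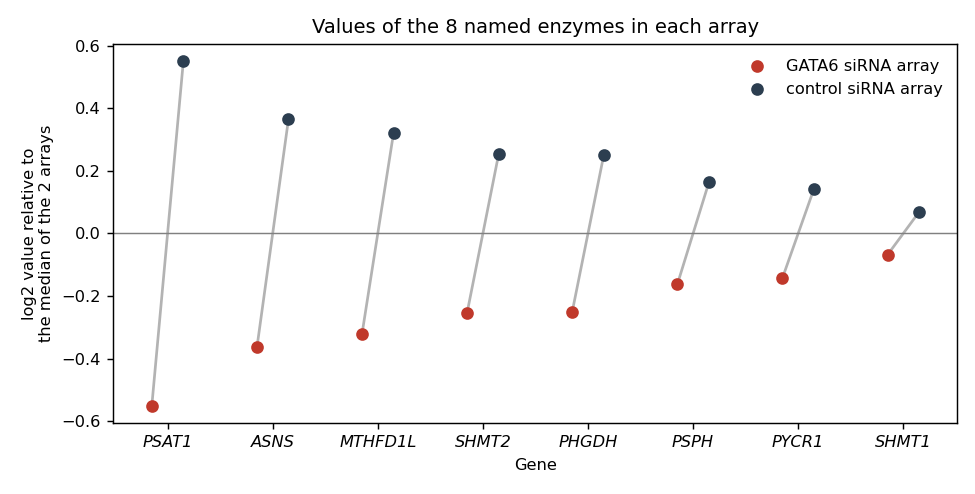
Log2 value of each of the 8 named enzymes (vertical axis, relative to the median of the 2 arrays) in the GATA6 siRNA array (red, left point) and the control siRNA array (dark, right point), with genes ordered by the size of the difference. Each pair mirrors about 0 by construction, and the distance between the points runs from 1.10 for PSAT1 to 0.14 for SHMT1.

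The siRNA target was lower in the array labelled GATA6 siRNA, at -0.58 against 0.58 in the control siRNA array, a log2 difference of -1.15. All 8 enzymes were read by a single probe set each, so no enzyme had a second reading inside these arrays. The only measure of spread came from 470 other genes that had 2 probe sets each, with an SD of 0.19 on the log2 scale within a gene, which makes the SD of the difference between a pair of single probe sets 0.27. This SD of 0.27 is not replicate error, and it is used below only as a yardstick for the distance between 2 genes.

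In the synthesis of serine all of the enzymes were measured. PHGDH, which oxidizes 3-phosphoglycerate and commits carbon to the pathway, had a value of -0.25 in the GATA6 siRNA array and of 0.25 in the control siRNA array. The difference of -0.50 corresponded to 70.7% of the control value and lay just beyond the 1.4-fold size. PSAT1, the aminotransferase that follows and takes its nitrogen from glutamate, was at -0.55 in the GATA6 siRNA array against 0.55 in the control siRNA array. Its log2 difference of -1.10 was a 2.14-fold decrease to 46.6% of the control value, similar in size to that of GATA6 itself. PSAT1 held rank 21 from the lowest among the 13753 genes, and it was the only 1 of the 8 enzymes lower by over 2-fold, a size reached by 0.240% of all named genes. PSPH, the phosphatase that releases serine, was at -0.16 in the GATA6 siRNA array and at 0.16 in the control siRNA array. Its difference of -0.33 (79.8% of the control value) did not reach 1.4-fold. The middle step of the chain lay -0.60 from PHGDH and -0.77 from PSPH. Both distances were larger than the SD of 0.27 for a pair of probe sets, whereas PHGDH and PSPH lay within it (-0.17). With 1 array per condition it is unknown whether these distances would recur.

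The mitochondrial and the cytosolic serine hydroxymethyltransferase had differences of unlike size in this comparison, which has no replicates. SHMT2, the mitochondrial enzyme and the entry of serine carbon into mitochondrial folate, was at -0.25 in the GATA6 siRNA array and at 0.25 in the control siRNA array, a difference of -0.51 or 70.4% of the control value. SHMT1, its cytosolic counterpart, was at -0.07 in the GATA6 siRNA array and at 0.07 in the control siRNA array, a difference of -0.14 or 91.0% of the control value. The distance of -0.37 between the paralogs was larger than the SD for a pair of probe sets. MTHFD1L, the mitochondrial synthetase that releases formate from formyl-tetrahydrofolate, was at -0.32 in the GATA6 siRNA array against 0.32 in the control siRNA array. With a difference of -0.64 (64.1% of the control value, rank 167) it lay close to SHMT2, at a distance of -0.14. Of the members, the mitochondrial SHMT2 and MTHFD1L were past 1.4-fold as deposited and the cytosolic SHMT1 was not. With the ribosomal protein genes set to 0, SHMT2 (-0.38) also missed that size. MTHFD2L, a named mitochondrial folate enzyme outside the members, had a difference of -0.30 and did not reach 1.4-fold as deposited.

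Among the amino acid synthesis enzymes outside the serine chain, ASNS, which amidates aspartate to asparagine, was at -0.36 in the GATA6 siRNA array and at 0.36 in the control siRNA array. The difference of -0.73 left 60.3% of the control value and placed ASNS at rank 105. PYCR1, the mitochondrial reductase that completes proline synthesis, was at -0.14 in the GATA6 siRNA array and at 0.14 in the control siRNA array. Its difference of -0.29 (82.1% of the control value, rank 1053) did not reach 1.4-fold. ASNS and PYCR1 lay -0.44 apart, more than the SD for a pair of probe sets.

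Ordered by difference the genes ran PSAT1, ASNS, MTHFD1L, SHMT2, PHGDH, PSPH, PYCR1 and SHMT1. Only the step from PSAT1 to ASNS, 0.37 on the log2 scale, was larger than the SD of 0.27 for a pair of probe sets. Each of the other 6 steps, from 0.0057 between SHMT2 and PHGDH to 0.17 between PHGDH and PSPH, was smaller. That SD is not replicate error, so with 1 array per condition the order is not resolved at any step. SHMT2 and PHGDH were also the members nearest to the 1.4-fold size on its far side (1.42-fold and 1.41-fold lower), and PSPH was the nearest on its near side (1.25-fold lower).

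**Figure D2:**
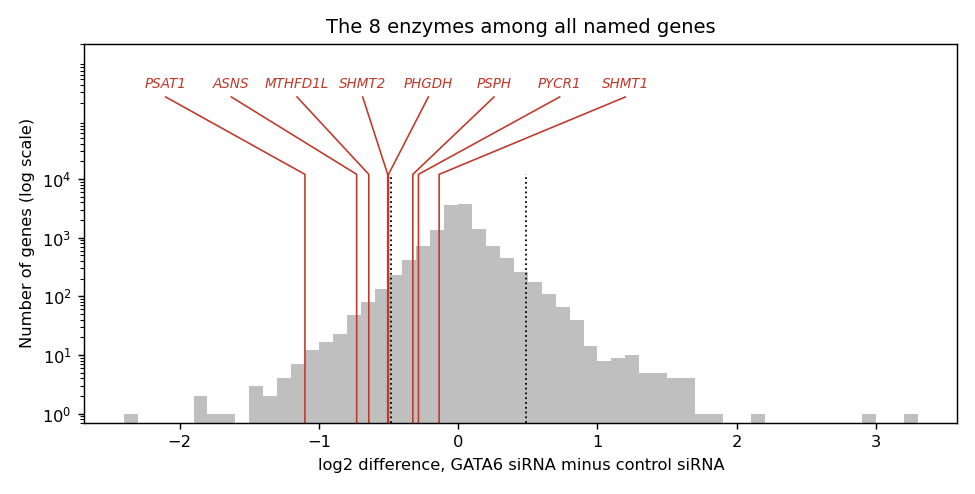
Distribution of the log2 difference, GATA6 siRNA minus control siRNA, over 13753 named genes (bars, number of genes on a log scale in steps of 0.1), with red lines at the 8 enzymes and dotted lines at 1.4-fold. The 8 lines all lie left of 0, and 5 of them lie left of the lower 1.4-fold line.

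The scaling between the arrays changed how many enzymes passed the size. Ribosomal protein symbols were held by 53 genes with a median difference of -0.13, and setting that median to 0 adds 0.13 to every gene, so that the median of all genes becomes 0.13. On this scale all 8 enzymes were still below 0, beside 18.5% of all genes, but SHMT1 was at -0.0076. PHGDH (-0.37) and SHMT2 (-0.38) no longer reached 1.4-fold, which left PSAT1 (-0.97), ASNS (-0.60) and MTHFD1L (-0.51), 3 of 8, beside 1.36% of all genes. Higher by over 1.4-fold on this scale were 0 of the 8 enzymes and 873 of the 13753 genes, against 489 genes as deposited. With quantile normalization of the columns the same 5 enzymes passed 1.4-fold, from PHGDH at -0.54 to PSAT1 at -1.27, beside 3.10% of all genes. Relative to the median of all genes, the median of the enzymes was -0.50 under both the deposited and the ribosomal scale, since the ribosomal scale only adds a constant.

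**Figure D3:**
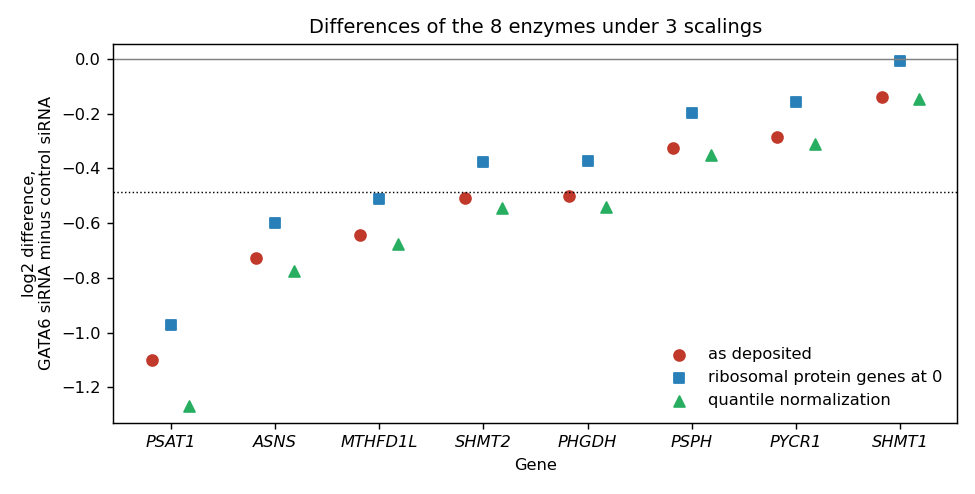
Log2 difference, GATA6 siRNA minus control siRNA, of each enzyme as deposited (circles), with the ribosomal protein genes set to 0 (squares) and after quantile normalization (triangles), with a dotted line at 1.4-fold. SHMT2 and PHGDH cross the line with the ribosomal protein scale, and PSAT1, ASNS and MTHFD1L stay below it under each of the 3 scalings.

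Promoter sequence was not used to choose the genes, and RefSeq windows (assembly GRCh38.p14) of 300 bases, from 250 bases before to 50 bases after an annotated start, were searched on both strands. Windows were held for 6 of the 10 genes, with 10 windows in all, namely those of PHGDH, PSAT1, SHMT1, MTHFD2, MTHFD1L and ASNS. The letters TGATGNAA, the core of the composite element bound by ATF4 with C/EBP factors, occurred in 3.62% of all 35116 windows. Of the 10 windows 4 held them, with overlapping windows of MTHFD1L sharing a single match. Of the genes with a window, 2 of 6 had them, ASNS and MTHFD1L. The share of 3.62% is per window and no share per gene was computed, so this count has no background beside it. Genes with several windows also had more places to match. The stretches of these genes are shown because they hold the match, with the matched letters in capitals, 5′ to 3′ on the strand of the gene. No link between the letters and the size of a difference was tested, and SHMT2, PSPH and PYCR1 had no window. The ASNS stretch covers bases 120 to 1 before the upstream of its annotated starts, chr7:97872409-97872528 on the minus strand, and its match begins 68 bases before that start. The MTHFD1L stretch is chr6:150866346-150866375 on the plus strand, where the match begins 129 bases before the most downstream of the clustered starts, 90 before a second and 25 bases inside the transcript of another.
ASNS: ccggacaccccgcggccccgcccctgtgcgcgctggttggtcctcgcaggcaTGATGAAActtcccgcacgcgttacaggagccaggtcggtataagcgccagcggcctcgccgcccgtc
MTHFD1L: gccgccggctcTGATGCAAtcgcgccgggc

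In MTHFD1L the match also holds the full 8 letters TTGCATCA on the opposite strand, which 0.866% of all windows contain, whereas the ASNS match differs from them. The E-box CACGTG, to which MYC with MAX is known to bind, was present in 3 of the 10 windows, beside 7.26% of all windows. Those were overlapping windows of MTHFD1L that share 1 such box, beginning 25 bases before the match. The GATA letters GATAAG occurred in 0 of the 10 windows and in 6.36% of all windows. These letters differ from the GATA motif given in the study, A/TGATAA/G, which was not searched. A match of letters is a description of the sequence and not a binding site, and a window without the letters says nothing of the factor, which may act from elsewhere.

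The windows of PSAT1 and PHGDH, the largest difference and the first step of serine synthesis, held none of the motifs above. After the windows had been read, the letters CCAAT, the core of the box bound by NF-Y, were added to the search, so the counts that follow are no independent observation. The letters occurred in 7 of the 10 windows, beside 34.6% of all windows, with overlapping windows of MTHFD1L sharing a single match. By gene, 5 of the 6 had them, ASNS being the exception, and no share per gene over all genes was computed. PSAT1 had 3 such boxes, at 113, 83 and 52 bases before its start, and PHGDH had 1 at 71 bases before its start. The stretches below cover bases 120 to 1 before the start, chr9:78297005-78297124 and chr1:119711814-119711933, both on the plus strand, with CCAAT in capitals.
PSAT1: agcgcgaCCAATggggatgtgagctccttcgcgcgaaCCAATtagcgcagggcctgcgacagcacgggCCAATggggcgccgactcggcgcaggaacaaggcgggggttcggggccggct
PHGDH: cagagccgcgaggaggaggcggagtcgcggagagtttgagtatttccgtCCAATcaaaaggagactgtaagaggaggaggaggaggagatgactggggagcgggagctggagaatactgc

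Other genes that share these pathways were taken from lists that were also written with results of the data known. In the folate cycle 8 of 18 listed genes were named, with a median of -0.11. TYMS, thymidylate synthase, which spends the folate-bound carbon on thymidylate, was at -0.47 in the GATA6 siRNA array and at 0.47 in the control siRNA array. Its difference of -0.94 was the only 1 of the 8 past 1.4-fold, beside 2.61% of all genes lower by that size. MTHFD2L, a mitochondrial paralog of MTHFD2, was next at -0.30, while ATIC, which uses formyl-folate in purine synthesis, had a difference of -0.11 (0.02 with the ribosomal protein genes at 0). Of the other 7 named folate genes, the farthest above 0 was FOLR1, a folate receptor, at 0.28.

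Genes of glycine cleavage and of serine entry into mitochondria differed in both directions. Of 8 named genes 0 were lower and 1 was higher by over 1.4-fold, beside 2.61% and 3.56% of all genes, with a median of -0.02. The gene past that size was SFXN3, a sideroflexin of the family that carries serine into mitochondria (0.61), while SFXN1, the main such carrier, had a difference of -0.02 and SFXN2 of -0.39. GLDC, the glycine decarboxylase, was at -0.02, and GCAT, which handles a product of threonine breakdown, was at -0.42. None of the 12 named genes of the methionine cycle and transsulfuration passed 1.4-fold (median -0.06), and the farthest were MTR, methionine synthase, at -0.41 and SRR, serine racemase, at 0.38, which passes the size at 0.51 with the ribosomal protein genes at 0.

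Enzymes of proline, glutamate and aspartate metabolism other than those above had a median of 0.02 over 10 named genes of 18. GLUL, glutamine synthetase, was at 0.28 in the GATA6 siRNA array and at -0.28 in the control siRNA array. Its difference of 0.56 was the only 1 past 1.4-fold, beside 3.56% of all genes higher by that size. ASS1, which also consumes aspartate, had a difference of 0.42 (0.55 with the ribosomal protein genes at 0, where it passes the size). PYCR3, a cytosolic paralog of PYCR1, was at -0.10 (0.03 with the ribosomal protein genes at 0), and its distance from PYCR1 of 0.18 was within the SD for a pair of probe sets. The enzymes that use aspartate and glutamate thus included ASNS among the lower genes and GLUL among the higher ones.

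The aminoacyl-tRNA synthetases for serine, asparagine, glycine, proline and methionine, which charge tRNAs with the products of these routes, were all below 0 in 5 of 5 named genes, with a median of -0.18. GARS1, the glycyl-tRNA synthetase, had a difference of -0.64 and alone passed 1.4-fold, beside 2.61% of all genes lower by that size. NARS1, for asparagine, was at -0.24, and MARS1, SARS1 and EPRS1 were between -0.18 and -0.16. With the ribosomal protein genes at 0 those last 3 lay between -0.05 and -0.03. Of 13 listed amino acid carriers 0 were named, and their transport was not analysed here.

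**Figure D4:**
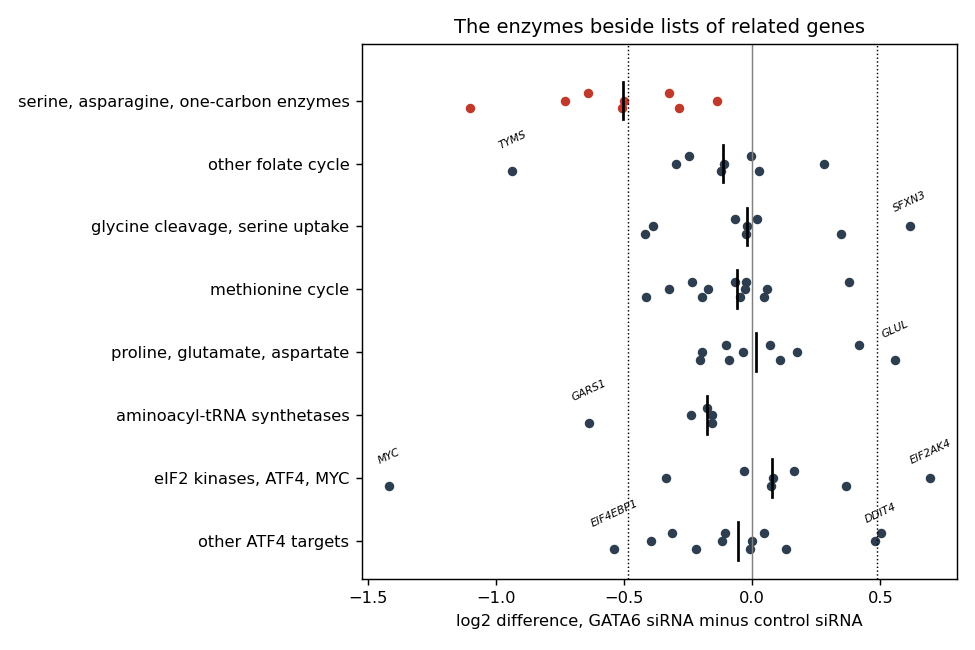
Log2 difference, GATA6 siRNA minus control siRNA, of each named gene (points) in the serine, asparagine and one-carbon enzymes (red) and in 7 lists of related genes (dark), with the median of each list as a vertical bar and dotted lines at 1.4-fold. The enzymes have a median of -0.50, and the medians of the 7 lists lie between -0.18 and 0.08.

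Known regulators of these enzymes were set beside them. ATF4 mRNA was at -0.02 in the GATA6 siRNA array and at 0.02 in the control siRNA array, a difference of -0.03 (0.10 with the ribosomal protein genes at 0). ATF4 is controlled largely through translation, which arrays of RNA do not measure. EIF2AK4, which encodes the kinase GCN2 that senses uncharged tRNAs, had a difference of 0.69 and EIF2AK3, the kinase PERK of the endoplasmic reticulum, of 0.36 (0.49 with the ribosomal protein genes at 0, where it just passes 1.4-fold), while EIF2AK1 and EIF2AK2 were at 0.08 and 0.07. ATF5, a relative of ATF4, was at -0.34. MYC was at -0.71 in the GATA6 siRNA array against 0.71 in the control siRNA array, a difference of -1.42 at rank 7, lower than any of the 8 enzymes. The part of any of these regulators in the differences of the enzymes was not tested.

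Other genes that ATF4 is known to induce differed in both directions. Of 12 named, 1 was lower, 1 higher and 10 within 1.4-fold, beside 2.61% of all genes lower and 3.56% higher. Their median was -0.06 (0.07 with the ribosomal protein genes at 0). EIF4EBP1, a repressor of cap-dependent translation, had a difference of -0.54, and this fell short of 1.4-fold with the ribosomal protein genes at 0 (-0.41). TRIB3, a pseudokinase that feeds back on ATF4, was at -0.39 and DDIT3, the stress factor CHOP, at -0.12 (0.0095 on the ribosomal protein scale). DDIT4, an inhibitor of mTORC1, was at 0.50 and GDF15, a secreted stress cytokine, at 0.48 (0.61 with the ribosomal protein genes at 0, where it passes). On that scale 2 of the 12, DDIT4 and GDF15, were higher by over 1.4-fold and 0 were lower. Over all 13753 genes 873 were higher and 187 lower by that size on the same scale. The difference between these targets and the enzymes was not tested, since genes of 1 comparison are not replicates.

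The labelled cell type could not be checked by level, because the table holds none, and which markers are at 0 in these cells is unknown. Of 9 listed markers of colon epithelium 8 were named. All 8 were above 0 in the GATA6 siRNA array relative to the control siRNA array, beside 6638 of all 13753 genes. They ran from 0.02 for VIL1 to 1.89 for KRT20, a keratin of differentiated colon epithelium. KRT20 was followed by KRT19 at 0.54 and the adhesion molecule EPCAM at 0.49, and these 3 passed 1.4-fold, beside 3.56% of all genes. With the ribosomal protein genes at 0, 4 of the markers passed, beside 873 of all 13753 genes. Of 15 markers of other cell types 6 were named and 0 passed 1.4-fold, with LYZ at 0.47 (0.60 with the ribosomal protein genes at 0, where it passes) and DES at -0.41 as the farthest. These are means over 2 probe sets that lay on either side of 1.4-fold, at 0.30 and 0.63 for LYZ and at -0.66 and -0.17 for DES. The part of either list in the differences of the enzymes was not tested.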

How the data were processed

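Total RNA of HT29 cells was profiled, per the study's methods, on Affymetrix Human Gene 2.0 ST arrays of 1 color with evaluation in GeneSpring. The authors deposited log2 values, here taken as base 2, for 44629 probe sets on 2 arrays. In all 44629 rows the columns cancel within 1e-06 and both have a median of 0. The sources used here do not give summarization, normalization, filters or what was reanalyzed in the control sample.

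The array's annotation gave 1 symbol to 15835 probe sets and several to 0, and 28794 stayed unnamed. Symbols were updated through Entrez IDs to assembly GRCh38.p14. A gene's value was the mean over its probe sets, and 1059 small RNA symbols were left out. Groups followed the treatment in the labels. With 1 array per group no test was run. The number of arrays limits the precision. Members and lists were chosen with earlier results of these data known. The text names GATA6, the members, MYC, ATF4, in each list other than markers the genes past 1.4-fold, and in each list the 2 farthest. It also names, after their values were seen, ATIC, FOLR1, SFXN1, SFXN2, GLDC, PYCR3, MARS1, SARS1, EPRS1, EIF2AK1, EIF2AK2, EIF2AK3, ATF5, TRIB3, DDIT3, GDF15, VIL1 and EPCAM where the rule did not. Counts and medians were checked on shuffled differences with known shifts. Python 3.11.15, pandas 2.3.3 and numpy 2.4.6 were used.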

Additional observations from a re-analysis of the deposited data

How the results depend on the processing

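Of the 8 enzymes, 5 were lower by over 1.4-fold as deposited, 3 with the ribosomal protein genes set to 0 (PHGDH and SHMT2 dropped out by the added constant) and 1 at a 2-fold size, by construction. The count was 5 with quantile normalization, with either choice of probe set and with a natural logarithm, where 5.83% of all genes were lower by over 1.4-fold. The choice of probe set could not change it, as each enzyme had 1. The median lay between -0.54 and -0.37 over all alternatives. Leaving out PSAT1, an alternative added after seeing the data, gave a count of 4 and a median of -0.50. The ATF4 letters were found in 2 genes, in 2 with bases before the start only, and in 1 with the full TTGCATCA. The letters CCAAT, also added after seeing the data, were found in 5. How far the signals lay above background is unknown, since the values hold no levels. No paired analysis was possible because there was only 1 array for each siRNA.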
